A study of Mus musculus with 6 samples.

Results

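DNA replication and S phase genes were followed in RNA sequencing of mouse LSK cells. These are bone marrow cells that lack lineage markers and carry Sca-1 and Kit, a gate that takes in the blood-forming stem cells and the multipotent progenitors. The set was chosen by name: 42 genes of origin licensing, the replicative helicase, the DNA polymerases, the sliding clamp, nucleotide supply and chromatin assembly, with the E2F transcription factors and E cyclins that switch them on. All 42 were found among the 38926 genes of the deposited table. The treated group was 3 libraries of cells from wild-type C57BL/6 mice that had been given haloperidol, a dopamine receptor blocker used as an antipsychotic, by injection on 3 days in a row. The comparison group was 3 libraries from wild-type C57BL/6 mice injected on the same schedule with DMSO, the solvent. The animals of both groups were 8 to 12 weeks old, the marrow came from femur and tibia, and the drug or the solvent was still present while the cells were sorted. Whether replicates were separate mice is not in the labels, so p-values cover only the spread between these samples, possibly a technical one. No label names a day or batch, and one shared within a group and the treatment cannot be told apart.

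At least 8492756 to 8936497 reads on genes lay behind each library, a depth worked out from the spacing of low values. Values are FPKM, fragments scaled to gene length and sequencing depth, so levels of different genes can be set side by side per length. Kit lay between 69.8 and 96.3 FPKM and Ly6a, which encodes Sca-1, between 125 and 147 FPKM over the 6 libraries. Of the B cell markers, Ms4a1 and Pax5 stayed below 1 FPKM in every library, as did Cd3e, Cd3g, Cd8a and Klrb1c among 6 T and NK cell markers, with Cd8a at 0 reads in all 6 libraries. Other markers of mature cells were detected. The 4 measured erythroid markers summed to between 2613 and 3431 FPKM in haloperidol libraries and between 2150 and 2865 FPKM in DMSO libraries, 5 neutrophil markers to between 139.8 and 238 FPKM with haloperidol and between 132 and 214 FPKM with DMSO, and 4 measured monocyte and macrophage markers to between 55.8 and 66.9 FPKM with haloperidol and between 29.8 and 33.9 FPKM with DMSO. Of these 3 lists, Cd68 of the macrophage list was the 1 gene called by limma (44.9 ± 3.90 FPKM with haloperidol and 16.2 ± 0.987 FPKM with DMSO). The sums of 5 B cell markers were 48.1 to 155 FPKM with haloperidol and 4.08 to 51.1 FPKM with DMSO. Those of 6 T and NK cell markers were 275 to 319 FPKM with haloperidol and 313 to 333 FPKM with DMSO, and those of 5 endothelial and stromal markers 12.4 to 13.9 FPKM with haloperidol and 12.2 to 12.9 FPKM with DMSO. In the group means, each of these 3 sums came mostly from 1 gene of its list. For T and NK cells it was Nkg7 (296 ± 22.6 FPKM with haloperidol and 318 ± 11.4 FPKM with DMSO). For endothelium and stroma it was Pecam1 (11.4 ± 0.560 FPKM with haloperidol and 11.2 ± 0.630 FPKM with DMSO). Within the gate, Cd34 was lower with haloperidol (557 ± 19.4 FPKM with haloperidol and 648 ± 24.7 FPKM with DMSO, limma adjusted p = 0.0153) and Flt3 higher (116 ± 5.21 FPKM with haloperidol and 103 ± 2.36 FPKM with DMSO). Flt3 lay just under the threshold of 0.05 (limma adjusted p = 0.0484). The part of these differences in the results below was not tested.

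Replication begins in G1, when the origin recognition complex, CDC6 and CDT1 load the MCM2-7 helicase onto DNA. At the start of S phase the CDC7 kinase, MCM10, CDC45 and the GINS complex turn the loaded helicase on, and polymerases, the PCNA clamp and its RFC loader copy the DNA. Transcription of most of these genes is driven by E2F factors once cyclin-dependent kinases release them from the retinoblastoma proteins, and most stem cells of the marrow rest outside the cycle while multipotent progenitors divide often.

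Letters of the E2F consensus were looked for in the promoters, and the matches are shown here because the choice by name did not use them. RefSeq promoter windows (build GRCm38.p6, 250 bases before to 50 bases after the start, first listed start of each gene) were at hand for 35 of the 42 genes. The letters TTTCCCGC, TTTGGCGC, TTTCGCGC or TTTGCCGC, 4 forms of the E2F consensus, were searched on both strands, and matches on opposite strands can overlap. They occurred in 11 of the 35 windows (31.4%), against 2.32% of 27025 windows of all genes. A CCAAT box (CCAAT on either strand) was present in 62.9% of the replication gene windows and in 37.9% of all windows, and the letters TTTGAA of the cell cycle homology region, an element known from promoters of G2 and M phase genes, in 11.4% and 18.1%. For each of the 11 genes the match nearest the start is printed within 30 bases, 5′ to 3′ along the gene's strand, with the letters of that match in capitals.
Orc1 (chr4:108579416-108579445, plus strand): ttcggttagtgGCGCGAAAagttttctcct
Cdc6 (chr11:98908002-98908031, plus strand): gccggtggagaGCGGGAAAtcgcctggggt
Cdt1 (chr8:122568035-122568064, plus strand): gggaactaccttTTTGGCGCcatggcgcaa
Mcm3 (chr1:20820275-20820304, minus strand): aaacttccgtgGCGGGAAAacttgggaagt
Mcm5 (chr8:75109347-75109376, plus strand): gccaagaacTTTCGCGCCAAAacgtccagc
Mcm6 (chr1:128359734-128359763, minus strand): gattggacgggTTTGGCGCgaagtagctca
Mcm7 (chr5:138171849-138171878, minus strand): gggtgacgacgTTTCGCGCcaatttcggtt
Rfc3 (chr5:151651190-151651219, minus strand): ctttcgcgctcGCGGGAAAactctactgtc
Pola1 (chrX:93632275-93632304, minus strand): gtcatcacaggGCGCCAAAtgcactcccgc
Pold1 (chr7:44548766-44548795, minus strand): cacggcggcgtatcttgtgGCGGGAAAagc
E2f2 (chr4:136172294-136172323, plus strand): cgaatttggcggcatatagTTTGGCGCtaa
In Mcm5 the capitals cover 2 overlapping matches, 1 on each strand. The Rfc3 line also holds a second match, TTTCGCGC, left in lower case because it lies farther from the start and does not overlap the first. A match of letters is a description of these windows and not a measured binding site.

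All 42 genes were expressed. Their mean over the 6 libraries ran from 3.15 FPKM (E2f2) to 347 FPKM (Mcm6), with a median of 32.6 FPKM, and the gene with the fewest reads in any library was Ccne1, with 90 reads in 1 haloperidol library. All 42 therefore passed the filter of a mean of at least 1 FPKM that was applied before testing. Summed over the 42 genes, expression was 2539 ± 95.7 FPKM with haloperidol and 2429 ± 62.6 FPKM with DMSO (mean ± SD, n = 3 each), and the ranges met, at 2459 to 2645 FPKM with haloperidol and 2357 to 2467 FPKM with DMSO. In bulk samples a change in the share of cells in S phase and a change in RNA per cell cannot be told apart.

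**Figure D1:**
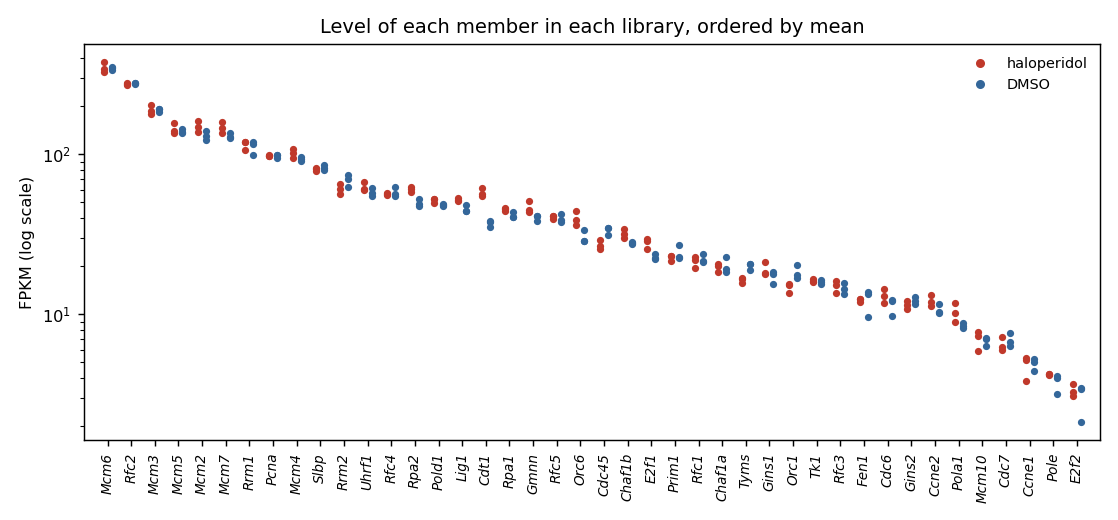
FPKM of each of the 42 genes in each library on a log axis, haloperidol (red, left of each pair) and DMSO (blue, right), with genes ordered by their mean over all 6 libraries. The levels span Mcm6 at 347 FPKM to E2f2 at 3.15 FPKM, and the points of the 2 groups lie close together for most genes.

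The comparison asked which of these genes differed between haloperidol and DMSO. Of the 42, 5 rose (Cdt1, Orc6, Rpa2, E2f1 and Lig1) and 3 fell (Cdc45, Orc1 and Tyms) at an adjusted p below 0.05 in limma's test over all 11436 genes, so 19.0% were called. Over all genes tested the same threshold called 24.5%, 11.5% higher and 13.0% lower. In this fit the share of replication genes called thus lay near that of genes in general and below it. The split of calls moved with the scaling between libraries, to 7 higher and 2 lower with upper quartile scaling and 6 and 2 with quantile normalization. Rescaling to a common sum gave 4 and 3. Over all genes tested these scalings called 1551, 1385 and 1114 higher and 1327, 1446 and 1565 lower, in that order. Without haloperidol replicate 2, 3 genes rose and 2 fell, and without DMSO replicate 1, 3 rose and 3 fell. Without DMSO replicate 2 the counts were 2 and 0, and without haloperidol replicate 1 they were 4 and 0. Over all 11436 genes these fits called 904, 957, 815 and 869 higher, in that order, and 1100, 1152, 1006 and 1139 lower. With limma 3 were lower at an unadjusted p below 0.05 in both fits with 0, and limma-voom on the recovered reads of all libraries called 4 or 3 lower, by scale. The median log2 fold change was 0.05 over the 42 genes and 0.00 over all genes tested. The largest change was that of Cdt1, 1.54-fold on the scale of log2(FPKM + 1), and for the other 41 genes the whole 95% confidence interval of the change lay within 1.5-fold in either direction. With a pseudocount of 0.1 FPKM in place of 1 FPKM this held for 39 genes, as the intervals of Orc6 and E2f2 then also crossed that limit.

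**Figure D2:**
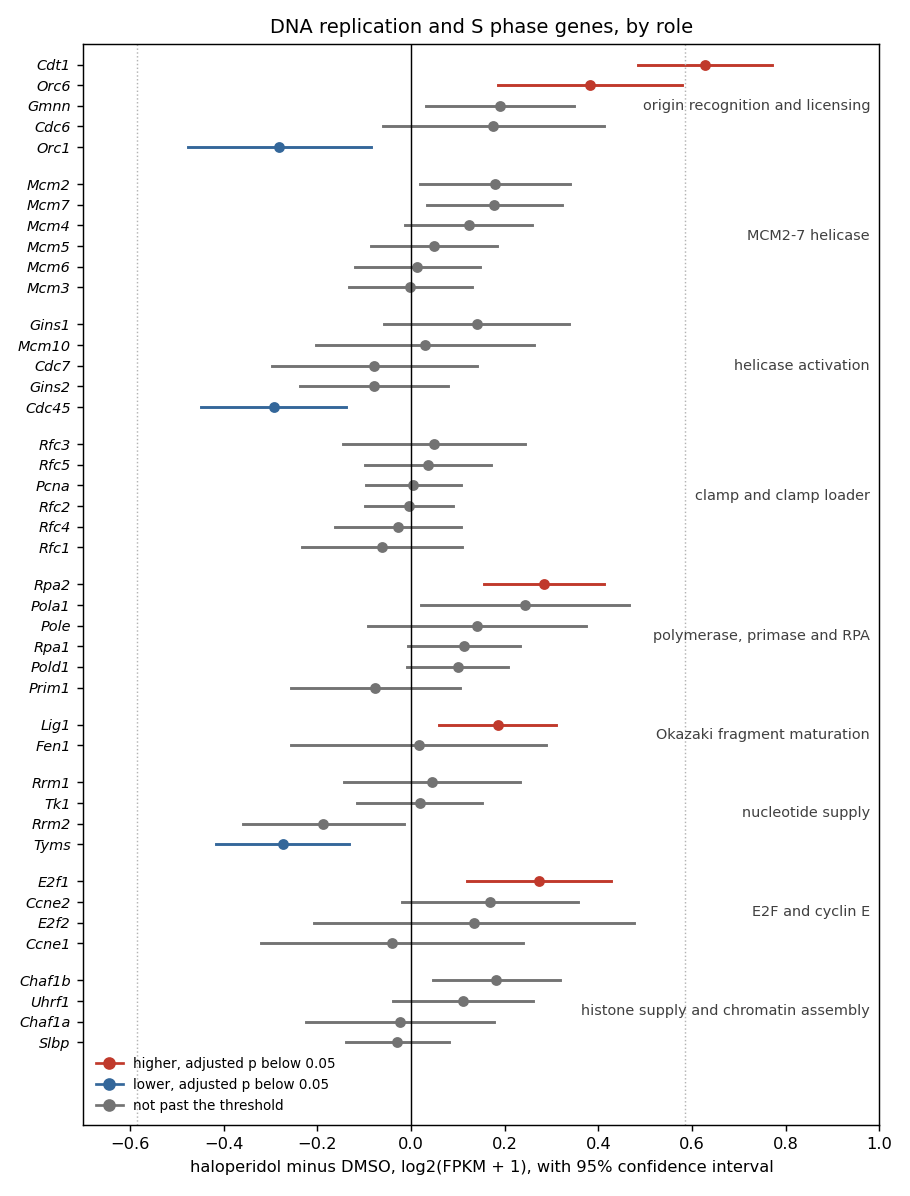
Change with haloperidol for each gene, as the difference in log2(FPKM + 1) from DMSO (point) with its 95% confidence interval (line), grouped by role. Red genes rose, blue genes fell and grey genes did not pass the threshold, and dotted lines mark 1.5-fold. Among the 42 intervals that of Cdt1 reaches beyond a dotted line.

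The clearest change was in licensing. Cdt1, the factor that brings the MCM2-7 helicase to origins (chromosome 8, 122568015 to 122573554), was at 56.6, 61.8 and 54.6 FPKM in haloperidol libraries 1, 2 and 3, against 37.6, 38.2 and 35.0 FPKM in DMSO libraries 1, 2 and 3. Every haloperidol library was above every DMSO library, with a wide gap. The means were 57.6 ± 3.71 FPKM with haloperidol and 36.9 ± 1.71 FPKM with DMSO (SD, n = 3 each). The log2 fold change was thus 0.63 (SE 0.06, limma adjusted p = 4.05e-04). The call held under all 19 other settings, where the log2 fold change lay between 0.58 and 0.67.

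Gmnn encodes geminin, the protein that binds CDT1 and blocks a second round of licensing after S phase has begun. Gmnn was at 44.7, 43.4 and 50.8 FPKM with haloperidol, against 41.3, 38.4 and 41.3 FPKM with DMSO. The haloperidol libraries were all higher here too, but the difference was small and did not pass the threshold (log2 fold change 0.19, 95% interval 0.03 to 0.35, limma adjusted p = 0.0783). The ratio of Cdt1 to Gmnn within a library was 1.27, 1.42 and 1.07 with haloperidol and 0.910, 0.995 and 0.847 with DMSO, and these ranges did not overlap. This was not particular to the pair. The ratio of Mcm6 to Mcm4 did not overlap either (3.37, 3.49 and 3.47 with haloperidol and 3.75, 3.63 and 3.78 with DMSO). The ratio of E2f1 to E2f2 did overlap.

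Of the origin recognition complex, Orc6 rose and Orc1 fell, while Orc2, Orc3, Orc4 and Orc5, which are not among the 42, were measured and not called. Orc6, the smallest subunit, was at 39.0, 36.2 and 43.9 FPKM with haloperidol, against 28.7, 28.6 and 33.4 FPKM with DMSO. Its groups did not overlap and it rose by 0.38 on the log2 scale (SE 0.09, limma adjusted p = 0.0146). Orc1, the subunit whose protein is removed and remade within each cycle, was at 15.3, 15.5 and 13.6 FPKM with haloperidol, against 20.3, 17.7 and 16.8 FPKM with DMSO. Orc1 fell by 0.28 on the log2 scale (SE 0.09, limma adjusted p = 0.0434), and among its DMSO libraries the first was the highest. The call for Orc1 ended in 9 of 19 other settings, among them leaving out any 1 library other than DMSO replicate 3, and without DMSO replicate 1 its adjusted p was 0.118. The call for Orc6 ended when all genes were tested unfiltered (adjusted p = 0.0501), and in the fits without DMSO replicate 1 (0.0528) and without DMSO replicate 2 (0.0553). Cdc6, the loading ATPase that joins ORC and CDT1 at origins, averaged 13.0 ± 1.35 FPKM with haloperidol and 11.4 ± 1.39 FPKM with DMSO, with overlapping groups (limma adjusted p = 0.251).

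The 6 genes of the MCM2-7 helicase were the most abundant role group, summing to 1013 to 1165 FPKM in haloperidol libraries and 999 to 1052 FPKM in DMSO libraries. No gene of the 6 passed limma's threshold, and 2 were higher at an unadjusted p below 0.05. Mcm6 was at 343, 377 and 327 FPKM with haloperidol, against 338, 348 and 351 FPKM with DMSO, so the groups overlapped, with a log2 fold change of 0.01 (SE 0.06, 95% interval -0.12 to 0.15, limma adjusted p = 0.897). The order of levels per length was Mcm6, Mcm3, Mcm5, Mcm2, Mcm7 and Mcm4. Mcm3, at 189 ± 13.2 FPKM with haloperidol and 189 ± 4.19 FPKM with DMSO, and Mcm5, at 144 ± 10.4 FPKM with haloperidol and 139 ± 3.78 FPKM with DMSO, had overlapping groups too, with 95% intervals of -0.13 to 0.13 and -0.09 to 0.18 on the log2 scale. Mcm2 (149 ± 11.8 FPKM with haloperidol and 131 ± 8.31 FPKM with DMSO), Mcm7 (147 ± 11.4 FPKM with haloperidol and 130 ± 4.62 FPKM with DMSO) and Mcm4 (101 ± 6.95 FPKM with haloperidol and 92.9 ± 2.79 FPKM with DMSO) had higher means with haloperidol and adjusted p of 0.0964, 0.0727 and 0.167. For Mcm7 all haloperidol libraries lay above all DMSO libraries, while for Mcm2 and Mcm4 the groups overlapped. Haloperidol replicate 2 was the highest of the 6 libraries for all 6 MCM2-7 genes, and the cause was not tested. With limma-voom on the recovered reads Mcm2 passed the threshold (adjusted p = 0.0353 and 0.0362 on the 2 scales tried), as did Mcm7 (adjusted p = 0.0247 and 0.0261).

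Among the factors that switch the helicase on, Cdc45 fell. Cdc45 travels with the MCM2-7 ring and the GINS complex at the fork as part of the active helicase. It was at 25.7, 29.0 and 26.6 FPKM with haloperidol, against 31.1, 34.6 and 34.5 FPKM with DMSO. All haloperidol libraries lay below all DMSO libraries, with means of 27.1 ± 1.71 FPKM with haloperidol and 33.4 ± 2.0 FPKM with DMSO, a log2 fold change of -0.29 (SE 0.07, limma adjusted p = 0.0159). Leaving out haloperidol replicate 1, DMSO replicate 2 or DMSO replicate 3 ended that call, with adjusted p of 0.0555, 0.0608 and 0.0541. Its partners in the helicase did not pass. Gins1 averaged 19.1 ± 1.76 FPKM with haloperidol and 17.2 ± 1.51 FPKM with DMSO, and Gins2 11.4 ± 0.635 FPKM with haloperidol and 12.1 ± 0.562 FPKM with DMSO. Mcm10, which binds the helicase as it is activated, averaged 7.0 ± 0.966 FPKM with haloperidol and 6.80 ± 0.402 FPKM with DMSO, and Cdc7, the kinase that phosphorylates the MCM ring, 6.48 ± 0.610 FPKM with haloperidol and 6.90 ± 0.701 FPKM with DMSO, each with overlapping groups.

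The clamp and its loader showed the smallest differences. Pcna, the sliding clamp that tethers the polymerases, was at 98.4, 97.1 and 98.2 FPKM with haloperidol, against 94.8, 99.0 and 99.0 FPKM with DMSO. Rfc2, a small subunit of the loader and the second most abundant gene of the set, was at 279, 277 and 272 FPKM with haloperidol, against 275, 278 and 278 FPKM with DMSO. The groups overlapped for both genes, and the 95% intervals of the log2 fold change were -0.10 to 0.11 for Pcna and -0.10 to 0.09 for Rfc2 (limma adjusted p = 0.949 and 0.948). For Rfc1, the large subunit that opens the clamp, and for Rfc3, Rfc4 and Rfc5 the groups overlapped as well, with log2 fold changes between -0.06 and 0.05 over the 6 genes. No gene of the 6 was called by limma, 0 had an unadjusted p below 0.05, and limma-voom on the recovered reads called 0 too. Rfc1 averaged 21.3 ± 1.69 FPKM with haloperidol and 22.3 ± 1.41 FPKM with DMSO, Rfc3 14.9 ± 1.34 FPKM with haloperidol and 14.4 ± 1.17 FPKM with DMSO, Rfc4 56.4 ± 0.808 FPKM with haloperidol and 57.6 ± 4.04 FPKM with DMSO, and Rfc5 40.5 ± 0.780 FPKM with haloperidol and 39.5 ± 2.53 FPKM with DMSO.

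Of 6 genes of the polymerases, primase and the single-strand binding protein RPA, 1 rose. Rpa2, the middle subunit of the RPA trimer that coats unwound DNA (chromosome 4, 132768332 to 132778752), was at 58.2, 62.7 and 60.9 FPKM with haloperidol, against 47.6, 48.9 and 52.4 FPKM with DMSO. The groups did not overlap, and the means were 60.6 ± 2.27 FPKM with haloperidol and 49.6 ± 2.49 FPKM with DMSO, a log2 fold change of 0.28 (SE 0.06, limma adjusted p = 0.00817). Beside Cdt1 it was the other gene whose call held under all 19 other settings, with adjusted p of at most 0.0349. Rpa1, the large subunit of the same trimer, had the same direction in all libraries, at 45.2 ± 0.959 FPKM with haloperidol and 41.7 ± 1.79 FPKM with DMSO, and did not pass (log2 fold change 0.11, limma adjusted p = 0.154). For Pola1, the catalytic subunit of the primer-extending polymerase alpha (10.3 ± 1.44 FPKM with haloperidol and 8.51 ± 0.333 FPKM with DMSO), for Pold1, that of polymerase delta on the lagging strand (51.5 ± 1.38 FPKM with haloperidol and 48.0 ± 0.680 FPKM with DMSO), and for Pole, that of polymerase epsilon on the leading strand (4.23 ± 0.0365 FPKM with haloperidol and 3.76 ± 0.508 FPKM with DMSO), all haloperidol libraries lay above all DMSO libraries too. None of these 3 passed limma's threshold, at adjusted p of 0.104, 0.164 and 0.351. Pola1 passed in 3 of 19 other settings, without haloperidol replicate 3 (adjusted p = 0.0369) and in both limma-voom fits of the recovered reads (adjusted p = 0.0304 and 0.0339). Prim1, the primase that makes the RNA primer, averaged 22.6 ± 0.879 FPKM with haloperidol and 24.0 ± 2.58 FPKM with DMSO, and the groups overlapped.

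In all, the 2 groups did not overlap for 15 of the 42 genes (35.7%), with haloperidol above for 12 and below for 3. Over all genes tested the groups did not overlap for 43.1%, with haloperidol above for 21.0% and below for 22.1%.

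Lig1, the ligase that seals Okazaki fragments, was at 51.0, 51.5 and 53.1 FPKM with haloperidol, against 48.4, 44.3 and 44.0 FPKM with DMSO. Its groups did not overlap and it rose by 0.18 on the log2 scale (SE 0.05, limma adjusted p = 0.0400). The call ended in 9 of 19 other settings, among them rescaling to a common sum (adjusted p = 0.0581), the replicate block (adjusted p = 0.0644) and every fit that left out 1 library other than DMSO replicate 1, with adjusted p up to 0.127 without DMSO replicate 2. Fen1, the flap nuclease that acts just before the ligase, averaged 12.2 ± 0.352 FPKM with haloperidol and 12.2 ± 2.27 FPKM with DMSO, and the groups overlapped.

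The supply of nucleotides showed a fall of Tyms, thymidylate synthase, which makes the thymidine nucleotide that only DNA uses. Tyms was at 15.7, 16.6 and 16.8 FPKM with haloperidol, against 18.9, 20.7 and 20.5 FPKM with DMSO. All haloperidol libraries were lower, with a log2 fold change of -0.27 (SE 0.06, limma adjusted p = 0.0148). The call ended without haloperidol replicate 1 (adjusted p = 0.0514) and without DMSO replicate 2 (adjusted p = 0.0593). Rrm2, the regulated small subunit of ribonucleotide reductase, averaged 60.6 ± 4.14 FPKM with haloperidol and 69.2 ± 5.89 FPKM with DMSO, with 1 haloperidol library inside the DMSO range (log2 fold change -0.19, limma adjusted p = 0.104). Rrm2 passed as lower in 3 of 19 other settings, namely library weights, the fit lacking DMSO replicate 1, and limma-voom on the deposited scale, with adjusted p of 0.0437, 0.0457 and 0.0488. The large subunit gene Rrm1, the most abundant of the 4, was at 118.9, 119.9 and 106.2 FPKM with haloperidol, against 98.4, 117 and 120.1 FPKM with DMSO, so its groups overlapped (log2 fold change 0.04, 95% interval -0.14 to 0.23, limma adjusted p = 0.732). Tk1, thymidine kinase of the salvage pathway, averaged 16.1 ± 0.422 FPKM with haloperidol and 15.9 ± 0.528 FPKM with DMSO (95% interval -0.12 to 0.15).

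Of the genes that drive entry into S phase, E2f1 rose. E2f1 encodes an activating E2F factor and was at 25.6, 28.5 and 29.6 FPKM with haloperidol, against 22.6, 22.2 and 23.9 FPKM with DMSO. The groups did not overlap, and the log2 fold change was 0.27 (SE 0.07, limma adjusted p = 0.0203). Its call ended in 4 of the 6 fits that left out 1 library, with adjusted p up to 0.0720 without DMSO replicate 2, 0.0590 without DMSO replicate 1, 0.0645 without haloperidol replicate 2 and 0.0582 without haloperidol replicate 3. The related E2f2 was much lower, at 3.64, 3.06 and 3.27 FPKM with haloperidol, against 3.45, 3.40 and 2.11 FPKM with DMSO. DMSO replicate 3 stood below the other libraries, the groups overlapped, and the 95% interval of -0.21 to 0.48 around a log2 fold change of 0.13 (limma adjusted p = 0.550) was the widest upward among the genes that did not pass. Ccne1, a cyclin E that activates CDK2, was at 5.20, 3.80 and 5.31 FPKM with haloperidol, against 4.42, 5.23 and 5.04 FPKM with DMSO (log2 fold change -0.04, 95% interval -0.32 to 0.24, limma adjusted p = 0.843). Ccne2, the second cyclin E, was at 11.2, 13.2 and 12.0 FPKM with haloperidol, against 10.1, 10.3 and 11.6 FPKM with DMSO, again with overlap (log2 fold change 0.17, limma adjusted p = 0.172).

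Among the 11 genes whose promoter window held the E2F letters printed above, Cdt1 rose and Orc1 fell, and the other 9 did not pass. Their median log2 fold change was 0.10, and among the 24 genes whose window held no such letters 4 rose and 2 fell, with a median of 0.02. Over all genes tested 11.5% rose and 13.0% fell, 24.5% in either direction. The difference between genes with and without the letters was not tested.

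Of the 4 genes that supply histones and build chromatin behind the fork, 0 passed limma's threshold, and 1 was higher at an unadjusted p below 0.05, while limma-voom on the recovered reads called 1 higher. Slbp, which binds the stem-loop of histone mRNAs, was at 81.7, 78.6 and 81.3 FPKM with haloperidol, against 82.5, 79.2 and 85.2 FPKM with DMSO, with overlapping groups and a log2 fold change of -0.03 (95% interval -0.14 to 0.08, limma adjusted p = 0.690). Chaf1a and Chaf1b encode subunits of the histone chaperone CAF-1. Chaf1b was at 31.9 ± 2.03 FPKM with haloperidol and 28.0 ± 0.320 FPKM with DMSO, with all haloperidol libraries above (log2 fold change 0.18, limma adjusted p = 0.0563). It passed in 7 of 19 other settings, both fits of the recovered reads among them. Chaf1a averaged 19.6 ± 1.21 FPKM with haloperidol and 20.0 ± 2.39 FPKM with DMSO, and Uhrf1, which brings the maintenance DNA methyltransferase to new DNA, 62.7 ± 3.99 FPKM with haloperidol and 58.0 ± 3.58 FPKM with DMSO, both with overlapping groups.

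**Figure D3:**
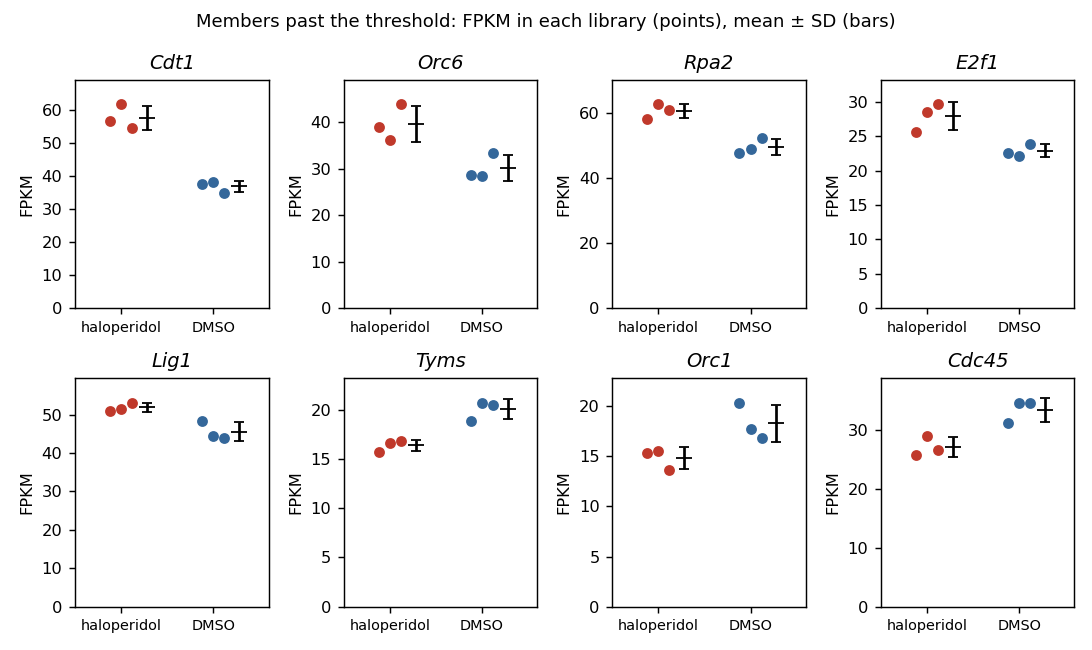
FPKM in each library for the 8 genes past the threshold, haloperidol (red) left of DMSO (blue), with the mean ± SD of each group as black bars and every axis starting at 0. The groups do not overlap in any panel, and the gap is widest for Cdt1, at 54.6 to 61.8 FPKM with haloperidol against 35.0 to 38.2 FPKM with DMSO.

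Other replication genes outside the 42 were taken from a list of helicase, polymerase, fork and nucleotide genes. Of 57 listed, 11 rose and 2 fell in the same fit, with a median log2 fold change of 0.08. The shares over all genes tested were 11.5% higher and 13.0% lower. The 2 with the smallest p encode mitochondrial folate enzymes that feed one-carbon units to nucleotide synthesis: Shmt2 was at 171 ± 4.35 FPKM with haloperidol and 119.7 ± 3.77 FPKM with DMSO (limma adjusted p = 2.59e-04), and Mthfd2 at 16.1 ± 1.23 FPKM with haloperidol and 10.2 ± 0.416 FPKM with DMSO (adjusted p = 8.65e-04). Dtymk, the kinase that acts on the product of thymidylate synthase, rose to 79.0 ± 0.666 FPKM with haloperidol, against 64.6 ± 2.03 FPKM with DMSO, and Tipin, a fork protection factor, to 156 ± 4.38 FPKM with haloperidol, against 126 ± 7.56 FPKM with DMSO. Ssrp1, a subunit of the histone chaperone FACT and one of the most abundant on the list, was at 157 ± 4.69 FPKM with haloperidol and 154 ± 3.85 FPKM with DMSO (adjusted p = 0.746).

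Of 29 further E2F, pocket protein and G1/S genes, 4 rose and 5 fell, with a median of -0.04. For this list and the checkpoint list below, the shares over all genes tested were 11.5% higher and 13.0% lower. Myc, a transcription factor that drives growth and cycle entry, rose to 143 ± 2.87 FPKM with haloperidol, against 103 ± 3.49 FPKM with DMSO (limma adjusted p = 3.80e-04), and Cdk6, a kinase that acts on the retinoblastoma proteins, to 62.2 ± 2.64 FPKM with haloperidol, against 44.1 ± 3.10 FPKM with DMSO (adjusted p = 0.00129). Fbxo5, which encodes EMI1, an inhibitor that keeps the anaphase-promoting complex off its substrates through S phase, fell to 12.1 ± 0.8 FPKM with haloperidol, against 19.0 ± 1.33 FPKM with DMSO (adjusted p = 9.90e-04). Mycn fell as well, to 3.61 ± 0.388 FPKM with haloperidol, against 5.85 ± 0.568 FPKM with DMSO. The most abundant genes of this list, Cdkn1a (483 ± 64.6 FPKM with haloperidol and 443 ± 28.9 FPKM with DMSO) and Cdk4 (200.2 ± 3.11 FPKM with haloperidol and 207 ± 5.78 FPKM with DMSO), did not pass. Of 11 replication checkpoint genes 1 rose, Etaa1, an activator of the ATR kinase at coated single strands (6.48 ± 0.197 FPKM with haloperidol and 4.66 ± 0.166 FPKM with DMSO), and 3 fell: Rad9a of the checkpoint clamp (13.1 ± 0.591 FPKM with haloperidol and 17.7 ± 1.19 FPKM with DMSO), Wee1 (29.9 ± 3.28 FPKM with haloperidol and 37.8 ± 2.86 FPKM with DMSO) and Chek1 (7.31 ± 0.658 FPKM with haloperidol and 9.06 ± 0.602 FPKM with DMSO). Chek1 lay just under the threshold (limma adjusted p = 0.0471). With no filter on low values 1 checkpoint gene fell, and 1106 of all 20633 genes then tested.

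Mitosis genes, the next stage of the cycle, gave other counts in the same libraries. Of 44 listed, 1 rose and 16 fell, with a median log2 fold change of -0.17. Among all genes tested 11.5% rose and 13.0% fell. Kif23, a motor of the midzone, fell to 19.1 ± 0.781 FPKM with haloperidol, against 29.1 ± 0.636 FPKM with DMSO (limma adjusted p = 3.21e-04), and the mitotic kinase Aurka fell to 14.8 ± 1.42 FPKM with haloperidol, against 25.4 ± 1.92 FPKM with DMSO. Plk1, another mitotic kinase, fell to 11.6 ± 1.19 FPKM with haloperidol, against 21.9 ± 2.78 FPKM with DMSO. Hmmr, a spindle protein, fell to 7.64 ± 0.224 FPKM with haloperidol, against 12.5 ± 1.39 FPKM with DMSO. The most abundant genes of the list, Bub3 (119 ± 3.16 FPKM with haloperidol and 125 ± 8.11 FPKM with DMSO) and Ccnb2 (93.9 ± 4.93 FPKM with haloperidol and 86.7 ± 8.72 FPKM with DMSO), did not pass. The difference between the mitosis and the replication lists was not tested. Of the promoter letters, TTTGAA was present in 11.4% of the replication gene windows, against 72.2% of 36 mitosis windows. The E2F letters were in 31.4%, against 2.78%, and CCAAT was in 62.9%, against 72.2%. A link between the letters and the changes was not tested.

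**Figure D4:**
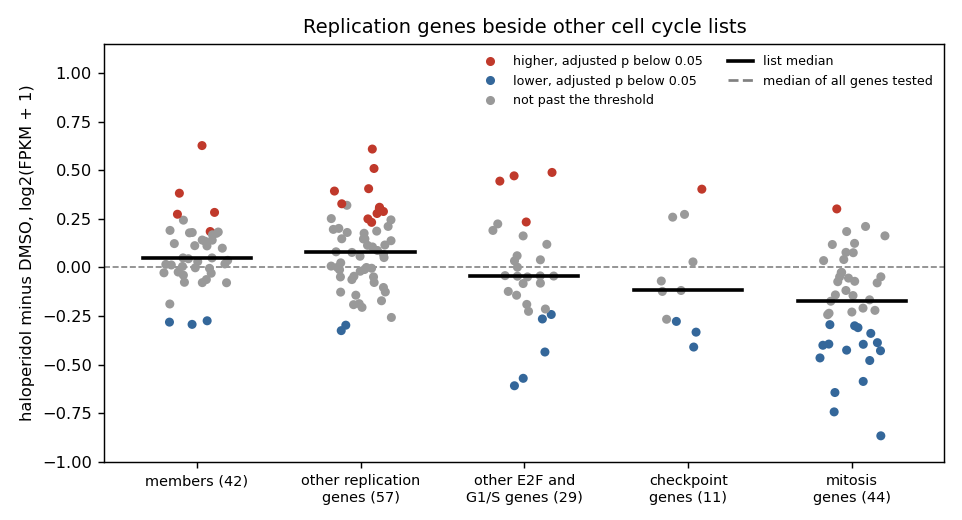
Difference between haloperidol and DMSO in log2(FPKM + 1) for each gene of 5 lists (points), with list medians as black bars and the median of all genes tested as a dashed line. The medians are 0.05 for the 42 replication genes and -0.17 for the 44 mitosis genes, and red and blue points are genes that rose or fell.

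The libraries of a group were not alike in these lists. The mean deviation of the 42 genes from their own averages, on the log2(FPKM + 1) scale, was 0.02, 0.07 and 0.00 in haloperidol libraries 1, 2 and 3, and -0.07, -0.01 and -0.02 in DMSO libraries 1, 2 and 3. DMSO replicate 1 was the lowest of the 6 libraries for 16 of the 42 genes, and haloperidol replicate 2 was the highest for 16. For the mitosis genes the mean deviations were -0.06, -0.11 and -0.12 with haloperidol and -0.00, 0.15 and 0.15 with DMSO, so DMSO replicate 1 was the lowest DMSO library in both lists. Without DMSO replicate 1, 3 of the 42 genes rose and 3 fell, and 0 of 44 mitosis genes rose and 17 fell. In that fit 1 mitosis gene was higher at an unadjusted p below 0.05 by limma, and among all genes 957 rose and 1152 fell. With all 6 libraries, limma and limma-voom on the recovered reads each called 1 mitosis gene higher, Mybl2 with limma.

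**Figure D5:**
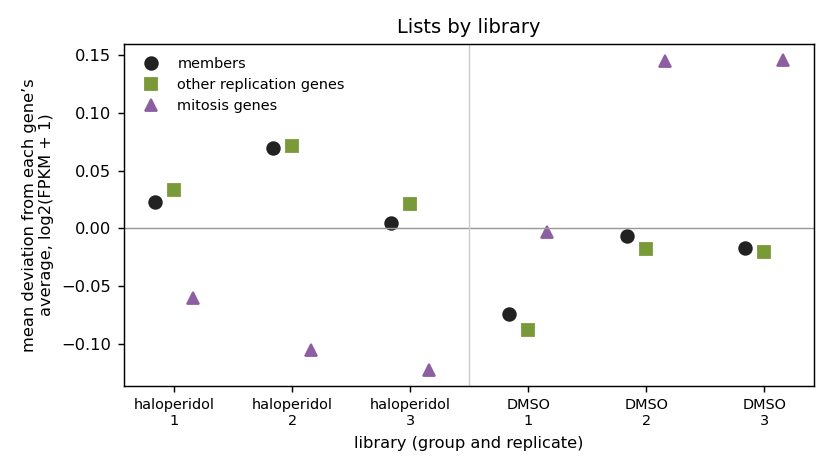
Mean deviation of the genes of a list from their own average over 6 libraries, in log2(FPKM + 1), for each library, haloperidol left and DMSO right. Black circles are the 42 replication genes, green squares 57 other replication genes and purple triangles 44 mitosis genes. DMSO replicate 1 lies at -0.07 for the 42 genes, below the other 5 libraries.

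Some levels are uncertain because the libraries keep no strand and exons of neighbouring genes overlap. In GENCODE M21 exons of 16 of the 42 genes overlap another gene. More than 50% of the exon bases of Gins2, Fen1 and Chaf1a overlap another gene, of Gins2 67.3% with Gse1, of Fen1 78.8% with Gm10143 and of Chaf1a 52.5% with Ubxn6, and none of these 3 was called. Among the called genes 10.8% of the exon bases of Orc1 overlap Gm12743, 6.93% of Orc6 overlap Vps35, 5.96% of Cdc45 overlap Ufd1 and 5.79% of Lig1 overlap Zswim9. Vps35 averaged 73.5 FPKM with haloperidol and 85.4 FPKM with DMSO, with a limma adjusted p of 0.0610, and Gm12743 was at 0.421 FPKM with haloperidol and 0.334 FPKM with DMSO. Pcna and Tyms have named pseudogene copies, Pcna-ps1, Pcna-ps2 and Tyms-ps, which can share their reads.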

How the data were processed

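Libraries of FACS-sorted LSK cells were made with a SMART-Seq low-input kit and a Nextera kit, per the labels' protocols. The tools listed in the submitters' processing notes are TopHat2 2.1.1 and HTSeq 0.6.1, besides bcl2fastq 2.19.1.403 and DESeq2 1.18.1, with build mm10. No annotation release or counting option is given in the sources used here. The deposited data are 1 table of the authors' FPKM values with 1 column per library. Whole reads were recovered from the FPKM steps for 100% of genes above 0, within 0.001 reads. A factor common to all reads of a gene is lost, so depths are lower bounds. The count of reads gives the depth, and 0 reads allows up to 0.336 to 0.353 RPM, for counting error only. Chi-square per degree of freedom was at least 2.78 for every pair of libraries, so none agreed within sampling noise.

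Genes with a mean of at least 1 FPKM were tested with limma 3.58.1 (R 4.3.3) on log2(FPKM + 1). The test was two-sided, had no covariate and let the prior variance follow the mean, and Benjamini-Hochberg adjustment ran over 11436 genes at 0.05. Fold changes on this scale understate the change of low genes. Adjusted p-values in the text are from this fit unless another setting is named. Counts at an unadjusted p below 0.05 are given without the share over all genes, so they cannot show an excess. The test was tried on simulated data. Members and lists were chosen with earlier results of these data known. Members named with every library's value are those past the threshold that have an absolute log2 fold change of at least 0.4 or are among the 12 smallest p, the most abundant of each role group, and E2f1, E2f2, Ccne1, Ccne2, Cdt1 and Gmnn; Pcna was added after its values were seen. For other lists up to 4 genes of smallest p and the 2 most abundant are named. Some marker genes are not reported here. Alternatives covered the pseudocount, filter, scaling, prior variance, library weights, a replicate block, leaving out each library and, chosen after seeing the data, limma-voom on recovered reads. Positions are from GENCODE M21 (GRCm38, the assembly of mm10).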

Additional observations from a re-analysis of the deposited data

How the results depend on the processing

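Of the 42 genes, 5 rose and 3 fell. With no filter on low values 3 rose and 2 fell. Among all 20633 genes then tested 848 rose and 1106 fell, against 1320 and 1487 of 11436 with the filter. With limma-voom on recovered reads, chosen after seeing the data, 9 of the 42 rose on the deposited scale and 9 with library totals. Among all genes 1584 and 1605 rose in these fits, against 1320 in the main fit. In either direction they called 3334 and 3322 of 11436 genes, against 2807 in the main fit. Leaving out 1 library gave 2 to 6 genes that rose and 0 to 3 that fell, and among all genes 815 to 957 rose and 1006 to 1220 fell. No member fell by limma without haloperidol replicate 1 or without DMSO replicate 2, and 3 were lower at an unadjusted p below 0.05 in each fit. Among all genes 1139 and 1006 fell in these fits. With all 6 libraries limma-voom called 4 members lower on the deposited scale and 3 with library totals. It was not run with a library left out. Cdt1 and Rpa2 kept their calls in all 19 settings. No change of sign was seen for a called gene in these settings, 30 calls were lost and 20 gained over the single genes. The replicate block called 1208 genes higher and 1344 lower, and 5 and 3 of the 42. Same-numbered libraries did not deviate together (correlations of 0.00946, 0.0550 and 0.0195), and not every library correlated best with its own number. The labels pair no libraries, and such values cannot show whether same-numbered libraries were handled together. The block ended the call for Lig1 and passed Mcm7. With a mean of at least 5 FPKM, 39 of the 42 were tested. Depth limits Ccne1, at 90 to 126 reads a library, and E2f2, at 93 to 153, the genes with the fewest reads.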
